A study of Bos grunniens with 36 samples.

Results

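The genes described here are 7 components of the epithelial tight junction in the yak mammary gland: the claudins CLDN1, CLDN3, CLDN4, CLDN7 and CLDN8, occludin (OCLN) and the scaffold protein ZO-1 (TJP1). They were chosen by name, though with earlier results of these data known, out of 20108 genes or unnamed transcripts tested. The array holds 14 probes for them, 13 of which are in the deposited value table, and each gene is represented by the probe with the highest mean over all arrays. All 7 of these probes were well above background on 36 of 36 arrays. Mammary parenchyma was taken by biopsy from 4 female yaks (Bos grunniens) at 9 times: day -30 and day -15 before calving, and day +1, +15, +30, +60, +120, +180 and +240 after it. By the labels the groups differ only in the day, every animal was sampled at each day, and no treatment is named. The biopsies alternated between the left and right rear parts of the udder, and visible fat and connective tissue were removed. The RNA was put on single-colour Agilent arrays designed for cattle genes.

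Tight junctions seal the space between neighbouring epithelial cells. Claudins form the strands that close this space and set which ions pass, occludin lies in the same strands, and ZO-1 ties them to the actin cytoskeleton. In the mammary gland these junctions are leaky during pregnancy and close around calving, so that milk components are kept in the alveolar lumen.

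The values are log2 signals with the 75th percentile of each array set to 0, so a difference of 1 is a factor of 2. Array brightness, as that percentile, ran from 1029 to 6450 intensity units, and 68.6% to 89.3% of spots lay well above background. Brightness at day -30 was 4854 to 5752 units, and all arrays of day +15, +60, +180 and +240 lay below that range. The files carry 2 contradictory records of the days and animals. Each of the 36 columns of the value table matched the values of 1 scanner file, but 0 of these files were deposited under the same sample and 9 under the same day. With 1 sample per animal and day, those 9 files carry another animal number than the column. The days and animal numbers used here are those of the value table. In that record each of the 9 slides holds 1 day and each animal has its own slide position, so slide and day cannot be told apart. Precision is limited by the number of arrays. The whole-tissue RNA also means that fewer epithelial cells and less of a transcript per cell cannot be told apart.

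Markers of the luminal epithelium, the cell layer that carries these junctions, lay above the 75th percentile of the array in the mean on all arrays. The mean log2 value of 6 luminal markers (EPCAM, KRT7, KRT8, KRT18, KRT19 and CDH1) was between 2.55 and 3.33 on the 8 arrays of pregnancy and between 2.27 and 4.70 on the 28 arrays after calving, with medians of 3.09 and 3.19. Among them KRT19 rose, by 0.98 ± 0.209 (SE) on the log2 scale (limma, adjusted p = 0.000652), and the other 5 did not pass. In the same comparison of lactation with pregnancy 36% of all genes passed. A few arrays stand apart. Animal 4 had a mean of 0.51 at day +120 and 0.33 at day +180 for 6 secretory markers (CSN1S1, CSN2, CSN3, LALBA, PAEP and ELF5), below every array of pregnancy (3.95 to 4.98). Animal 1 at day +180 had the highest luminal marker mean of all arrays, 4.70.

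Sequences are shown for the pair of claudin probes that are most alike, because claudins are paralogs and a probe for one could bind the transcript of another. The capitals mark the bases that the CLDN3 and CLDN4 probes share in their best ungapped alignment, 5′ to 3′ (UMD 3.1 cattle assembly, plus strand at chr25:34019060-34019119 for CLDN3 and minus strand at chr25:33989106-33989165 for CLDN4).
CLDN3 probe: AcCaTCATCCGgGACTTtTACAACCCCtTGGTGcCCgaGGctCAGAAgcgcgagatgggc
CLDN4 probe: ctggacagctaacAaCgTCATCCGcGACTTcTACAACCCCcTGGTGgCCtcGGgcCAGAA
These probes share 37 of 47 aligned bases, the most among 25 pairs of probes for different claudins. The next pair shares 24 of 55. The CLDN3 probe shown is the one used for CLDN3. The CLDN4 values below come from a second CLDN4 probe at chr25:33988710-33988769 (minus strand), and the shown CLDN4 probe followed it closely over the 36 arrays (r = 0.98). The other genes were read at chr1:77611811-77611870 (CLDN1, plus strand), chr19:27602822-27602881 (CLDN7, minus strand), chr1:5037704-5037763 (CLDN8, plus strand), chr20:10155391-10155450 (OCLN, minus strand) and chr21:28934172-28934231 (TJP1, minus strand). Each probe is 60 bases long, and exon annotation was not used here.

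CLDN1 was the only one of the 7 genes whose level passed the test over the 9 days. It fell after calving: the mean over the 7 lactation days was 0.81 ± 0.217 (SE) lower on the log2 scale than the mean of both pregnancy days, which makes the pregnancy level 1.75-fold the lactation level. CLDN1, a barrier-forming claudin, had its lowest mean at day +60, and its mean at each of the 7 days after calving was below both pregnancy means. CLDN3, CLDN4, CLDN7, CLDN8, OCLN and TJP1 did not pass, and their spread between animals was large after calving.

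The test over all days (limma F test with Benjamini-Hochberg adjustment over all genes) gave CLDN1 an adjusted p of 0.0218, and 0.111, 0.304 and 0.0504 without animal 2, 3 and 4. That is 1 of 7 genes (14.3%), against 42.3% of all genes tested (8502 genes). The adjusted p was 0.184 for CLDN4, 0.189 for TJP1, 0.287 for OCLN, 0.372 for CLDN8, 0.469 for CLDN3 and 0.481 for CLDN7.

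**Figure D1:**
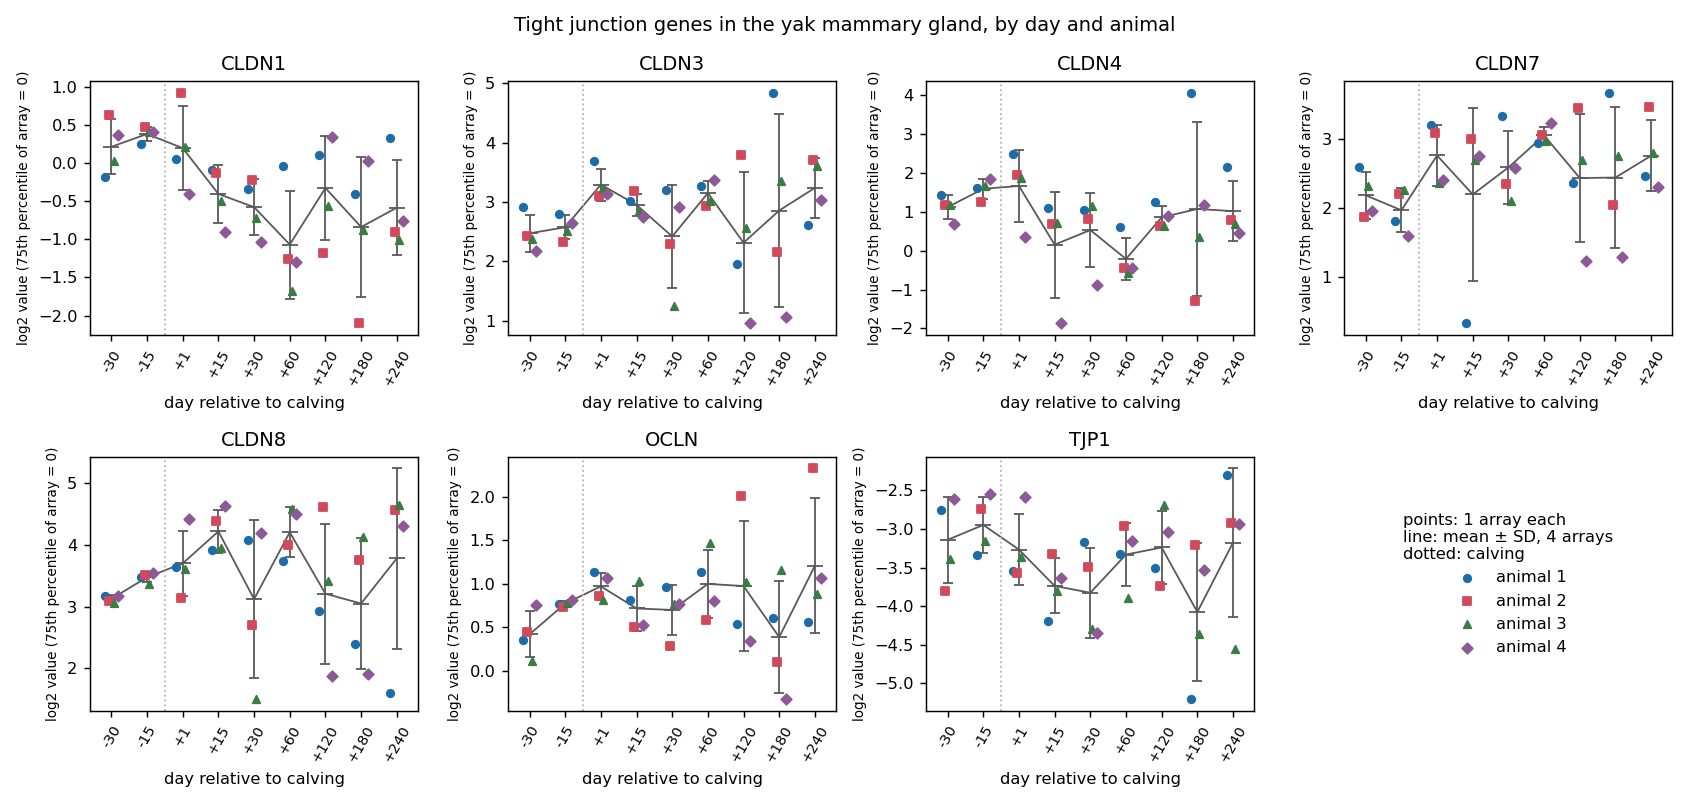
Log2 value (vertical axis, 75th percentile of the array at 0) of each of the 7 genes against the day relative to calving (horizontal axis, days in order and not to scale). Points are single arrays with a symbol for each of the 4 animals, the line joins the means, bars are ± 1 SD of 4 arrays, and the dotted line marks calving. CLDN1 steps down after day +1 to its lowest mean of -1.07 at day +60, and the points of CLDN8 lie close together at day -30 and day -15 and further apart from day +1 on.

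In animals 1 to 4, CLDN1 stood at -0.18, 0.63, 0.02 and 0.37 at day -30. At day -15 the values were 0.24, 0.47, 0.40 and 0.40, and at day +1 they were 0.05, 0.92, 0.20 and -0.40. The ranges of these 3 days overlap. At day +15 CLDN1 read -0.09, -0.13, -0.50 and -0.91, and at day +30 it read -0.34, -0.22, -0.72 and -1.03. All 4 arrays of day +30 lay below all 4 of day -30, as did 9.86% of all genes. At day +60 the values were -0.05, -1.26, -1.68 and -1.30, with animal 1 high and the other 3 animals low. At day +120 they spread from -1.18 in animal 2 to 0.33 in animal 4, at day +180 from -2.10 in animal 2 to 0.03 in animal 4, and at day +240 from -1.01 in animal 3 to 0.33 in animal 1. Values within the pregnancy range (-0.18 to 0.63) occurred at each day after calving except day +30.

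Against day -30, CLDN1 was called at day +60 alone, where 29.3% of all genes were called in either direction and 16.7% as lower. The mean went from 0.21 ± 0.358 (SD, n = 4) to -1.07 ± 0.707, a fall by 1.28 ± 0.383 (SE, limma, adjusted p = 0.014). It was lower in 3 of 4 animals (by animal -1.88, -1.70 and -1.67 in animals 2, 3 and 4) and 0.13 higher in animal 1. At day +180 CLDN1 was lower in 4 of 4 animals by a mean of 1.05 (difference -1.05 ± 0.383, limma adjusted p = 0.055) and was not called. The animals' own differences between lactation and pregnancy were -0.09, -1.25, -0.95 and -0.96, lower in 4 of 4 animals but close to 0 in animal 1 (limma adjusted p = 0.00461 for the mean of -0.81; 36% of all genes were called in this comparison, 19.2% as lower). Without animal 3 the difference was -0.77 and no longer passed (limma adjusted p = 0.0604), and the day +60 difference was lost without animal 3 (adjusted p = 0.132) or animal 4 (adjusted p = 0.0645). With array brightness as a covariate the difference between lactation and pregnancy was -0.04 (limma adjusted p = 0.905). The part of brightness in the CLDN1 result was otherwise not tested.

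A second CLDN1 probe, which overlaps the first (chr1:77611775-77611834, plus strand), gave the same direction. It was 0.70 lower in lactation (difference -0.70 ± 0.222 SE, limma adjusted p = 0.0145), and over the 36 arrays it followed the first with r = 0.98. Its test over the 9 days did not pass (limma adjusted p = 0.0887), nor did its difference at day +60 (-0.98 ± 0.391, limma adjusted p = 0.0573). Both probes share part of their sequence and are no independent measurements.

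**Figure D2:**
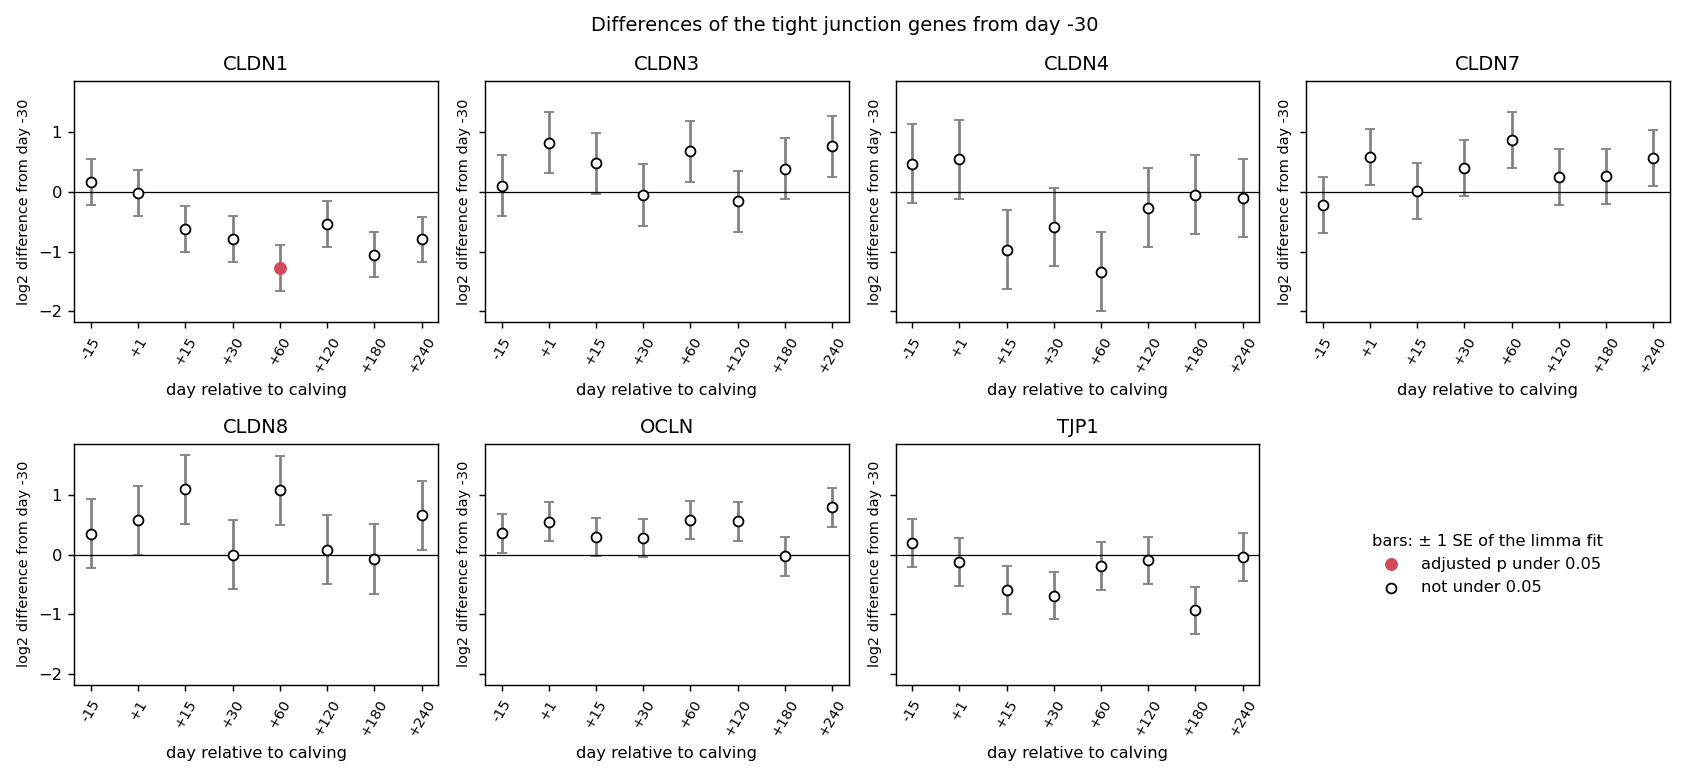
Log2 difference of each later day from day -30 (vertical axis) against the day relative to calving (horizontal axis), with ± 1 SE of the limma fit; filled points have an adjusted p under 0.05. CLDN1 at day +60 (-1.28) is the only filled point, and CLDN4 at day +60 is as low (-1.33) with a wider error.

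CLDN4, a claudin with a strong effect on ion passage and often induced in remodelling epithelia, was lower by 1.33 ± 0.659 (SE) at day +60 than at day -30, a difference that did not pass (limma adjusted p = 0.123). Its values in animals 1 to 4 were 1.44, 1.18, 1.17 and 0.69 at day -30. At day +60 they were 0.60, -0.45, -0.57 and -0.43. All 4 arrays of day +60 lay below all 4 of day -30, as did 19.8% of all genes. Around calving the CLDN4 mean was 1.66 ± 0.918 (SD, n = 4) at day +1 and 0.15 ± 1.36 at day +15. It was lower at day +15 in 4 of 4 animals (by animal -1.39, -1.27, -1.16 and -2.22), with ranges that overlap because animal 4 was already low at day +1 (0.35). That difference of -1.51 ± 0.659 had an unadjusted p of 0.0291 and an adjusted p of 0.198 in limma.

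CLDN4 had the largest spread between animals of the 7 genes after calving (pooled SD 1.17 from day +1 on, 0.285 before). It was even at day +120 and wide at day +180. At day +120 its values were 1.25, 0.63, 0.64 and 0.90, all above those of day +60, which held for 4.84% of all genes. At day +180 it read 4.07, -1.31, 0.35 and 1.18 in animals 1 to 4. Animal 1 was the highest and animal 2 the lowest, and the same holds for the luminal marker mean on these arrays, 4.70 and 2.27. Animals 3 and 4 stood in the reverse order, with luminal means of 3.70 and 3.06. The part of epithelial content in this spread was not tested beyond the rescaling that follows. With all values taken relative to the luminal markers, CLDN4 was called over the 9 days (limma adjusted p = 0.0264) and was 0.86 lower in lactation (difference -0.86, limma adjusted p = 0.0117). In that scaling 4490 of 20108 genes passed over the 9 days and 5733 between lactation and pregnancy. Of the latter only 15.5% were higher, and the median difference of all genes was -0.27, so the scaling lowered lactation values in general. Without this scaling and without the array of animal 1 at day +180 the CLDN4 difference was -0.76 (limma adjusted p = 0.047), where 7419 genes passed. It was -0.63 ± 0.374 (SE, limma adjusted p = 0.191) with all arrays.

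CLDN3 and CLDN7, 2 claudins common to many simple epithelia, had higher means after calving than before it in 4 of 4 animals, but neither passed. CLDN3 was 0.37 ± 0.29 (SE) higher in lactation (limma adjusted p = 0.335) and CLDN7 was 0.53 ± 0.265 higher (limma adjusted p = 0.12). Quantile normalization turned the CLDN3 difference to -0.02, and brightness as a covariate turned both (CLDN3 -0.43, CLDN7 -0.03).

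CLDN3 read 2.91, 2.42, 2.38 and 2.18 in animals 1 to 4 at day -30 and 2.81, 2.33, 2.52 and 2.65 at day -15. At day +1 it read 3.69, 3.11, 3.24 and 3.14. All 4 arrays of day +1 were above all arrays of both pregnancy days. Among all genes, 7.1% had such higher values than at day -30 and 7.05% had them against day -15. The difference from day -30 was 0.82 ± 0.511 (SE), higher in 4 of 4 animals (limma adjusted p = 0.372). CLDN3 was again above day -30 on all 4 arrays at day +60 (3.27, 2.94, 3.02 and 3.37), which held for 16.3% of all genes. At day +180 it ran from 1.06 in animal 4, the animal with low secretory markers, to 4.84 in animal 1, the animal with the highest luminal markers. Their part in the CLDN3 values was not tested. The second CLDN3 probe (chr25:34018791-34018850, plus strand) gave a lactation difference of 0.40 ± 0.206 (SE, limma adjusted p = 0.134).

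CLDN7 read 2.60, 1.87, 2.32 and 1.96 at day -30 and 1.82, 2.20, 2.26 and 1.59 at day -15. At day +1 it read 3.20, 3.09, 2.36 and 2.40, all above day -15, though animal 3 did so by 0.10. Such higher values held for 7.05% of all genes. At day +60 it read 2.95, 3.06, 2.98 and 3.23, all above day -30, as in 16.3% of all genes. The difference was 0.87 ± 0.468 (SE, limma adjusted p = 0.159). Day +60 had the narrowest CLDN7 spread (SD 0.126) and day +15 the widest (SD 1.25), since animal 1 stood at 0.34 there and the other 3 animals between 2.70 and 3.00. Animal 4 was low at day +120 (1.24) and day +180 (1.29), the arrays on which its secretory markers were low. Without these 2 arrays CLDN7 was 0.64 higher in lactation and passed (limma adjusted p = 0.0331), as did 8646 of 20108 genes in either direction.

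CLDN8, a claudin of tight epithelia of the kidney and gland ducts, was the most even of the 7 genes before calving and, after CLDN4, the most uneven after it. Its SD within a day, pooled over days, was 0.07 over day -30 and day -15 and 0.98 from day +1 on. In animals 1 to 4 CLDN8 read 3.170, 3.097, 3.052 and 3.174 at day -30. At day -15 it read 3.476, 3.507, 3.364 and 3.549, all above day -30, as in 0.875% of all genes. The step of 0.35 was alike in the 4 animals (0.31, 0.41, 0.31 and 0.37) but was not called (limma adjusted p = 1.00, with an SE of 0.579 from the spread of all 9 days). A fit of the 8 arrays of these days alone (SE 0.119) did not call it either (limma adjusted p = 0.775). That fit called 0 of 20108 genes.

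At day +15 CLDN8 read 3.91, 4.39, 3.95 and 4.62, all above day -30, as in 18% of all genes. At day +60 it read 3.74, 4.00, 4.58 and 4.49, again all above day -30, as in 16.3% of all genes. The differences were 1.09 ± 0.579 (SE, limma adjusted p = 0.183) and 1.08 ± 0.579 (limma adjusted p = 0.157), higher in 4 of 4 animals at both days. Between them, at day +30, the values were 4.08, 2.70, 1.50 and 4.19, so that 2 animals stayed above and 2 lay below their day -30 values. Over the whole lactation CLDN8 was 0.31 ± 0.328 (SE) higher than in pregnancy (limma adjusted p = 0.481). Quantile normalization turned this difference to -0.24. With brightness as a covariate it was -1.16 and passed (limma adjusted p = 4.88e-05), so its direction depends on how brightness is treated.

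The low CLDN8 arrays after calving were the arrays with low milk protein transcripts. The 4 lowest CLDN8 values after calving were 1.50 (animal 3, day +30), 1.60 (animal 1, day +240), 1.88 (animal 4, day +120) and 1.90 (animal 4, day +180). The same 4 arrays had the 4 lowest secretory marker means after calving, 3.86, 4.08, 0.51 and 0.33, where the median of the 28 arrays was 7.02. In pregnancy CLDN8 lay above these values, between 3.05 and 3.55 with marker means of 3.95 to 4.98. Those marker means are similar to 3.86 and 4.08, but the 2 arrays of animal 4 lay below every array of pregnancy in the markers. The part of the secretory cells in the CLDN8 values was not tested.

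**Figure D3:**
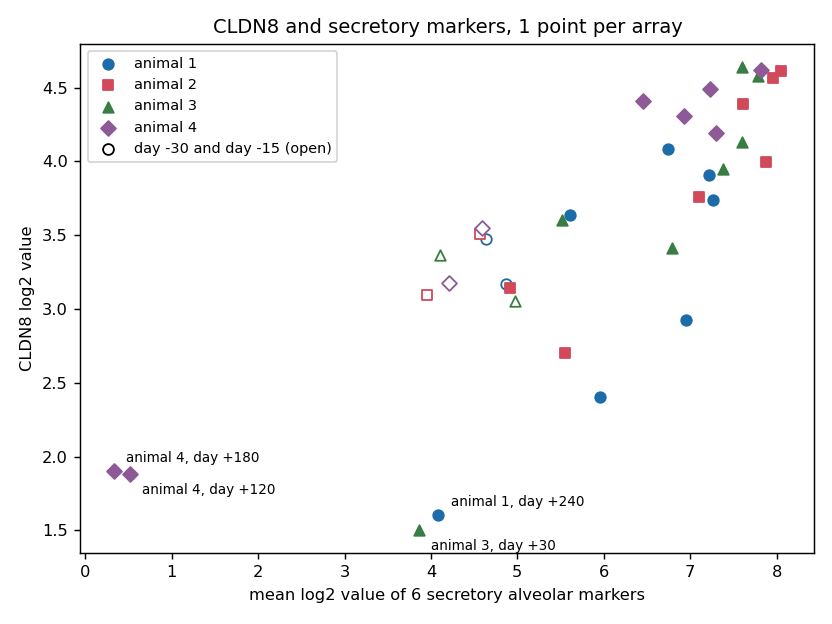
CLDN8 log2 value (vertical axis) against the mean log2 value of 6 secretory alveolar markers (horizontal axis), 1 point per array with a symbol for each animal; open points are day -30 and day -15. The 4 labelled arrays, between 1.50 and 1.90 in CLDN8, are also the lowest in the markers after calving.

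OCLN, a membrane protein of the strands, had the smallest spread of the 7 genes after calving (pooled SD 0.519 from day +1 on). In animals 1 to 4 it read 0.35, 0.45, 0.12 and 0.75 at day -30, and 0.77, 0.73, 0.78 and 0.81 at day -15. At day +1 it read 1.14, 0.86, 0.81 and 1.06, above all arrays of both pregnancy days, though only just (0.813 in animal 3 at day +1 against 0.81 in animal 4 at day -15). Among all genes, 7.1% had such higher values than at day -30 and 7.05% had them against day -15. The share above both days together was not counted. The difference of day +1 from day -30 was 0.55 ± 0.322 (SE, limma adjusted p = 0.337), higher in 4 of 4 animals. Animal 2 had the highest OCLN values of the series at day +120 (2.00) and day +240 (2.33), with 0.10 at day +180 between them. Over lactation OCLN was 0.25 ± 0.182 (SE) higher (limma adjusted p = 0.283). The other OCLN probes gave 0.13 (chr20:10159308-10159367, minus strand, r = 0.79 with the used probe) and 0.99 (r = 0.64), and the latter was well above background on 33 of 36 arrays.

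TJP1, which links the strands to actin, was lower in lactation than in pregnancy in 4 of 4 animals and did not pass. Its differences by animal were -0.55, -0.05, -0.57 and -0.74, with a mean of -0.48 ± 0.227 (SE, limma adjusted p = 0.0986). In animals 1 to 4 it read -2.76, -3.80, -3.40 and -2.61 at day -30. At day +180, the day with its lowest mean, it read -5.20, -3.21, -4.36 and -3.53, which overlaps with day -30. With normexp background correction the lactation difference was -0.07. A second TJP1 probe (chr21:28948739-28948798, minus strand), well above background on 31 of 36 arrays, gave -0.24 ± 0.21 (SE, limma adjusted p = 0.39), and its values followed the first only loosely (r = 0.34).

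The spread between animals widened after calving for these genes, and so did the median spread of all genes. The median SD of the 7 genes within a day was 0.312 at day -30 and 0.201 at day -15, near the median of all genes (0.302 and 0.225). The median of the 7 genes was 0.357 at day +15 and 0.401 at day +60, against 0.324 and 0.337 for all genes. The gap was widest at day +180, with 1.02 against 0.58 for all genes, and CLDN4 reached 2.25. The limma fit uses 1 spread per gene over all 9 days, so the errors printed for the early days are wider than the animals show there. A fit of the 8 arrays of the compared days alone called CLDN3 and OCLN at day +1 (17.8% of all genes were called) and CLDN8 at day +15 (25.5%) as higher than at day -30. At day +60 it called CLDN1 and CLDN4 as lower and CLDN3, CLDN7 and CLDN8 as higher (34.4%). Against day -15 it called CLDN3 and CLDN7 as higher at day +1 (17.1%). In these fits the adjusted p (limma) was between 0.00575 and 0.0481.

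**Figure D4:**
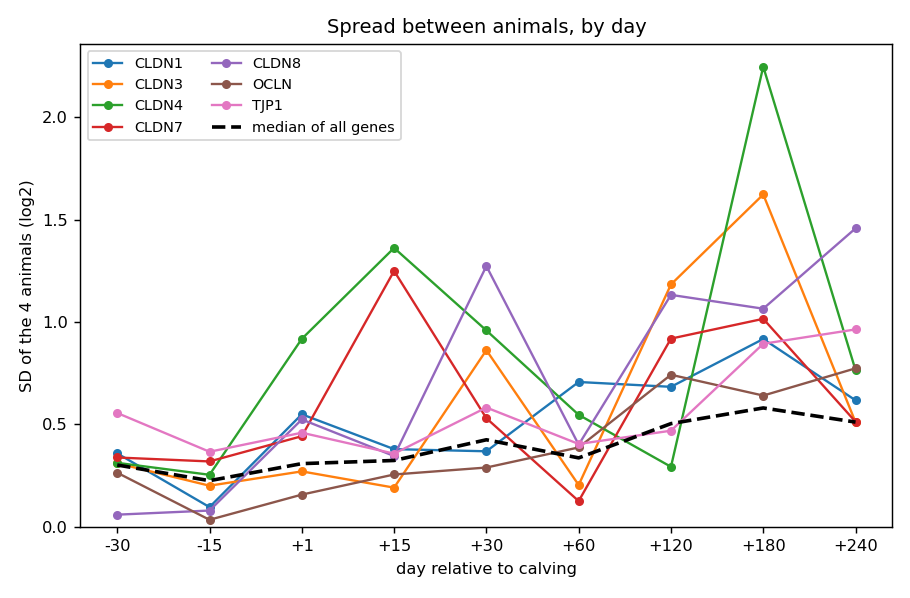
Standard deviation of the log2 values of the 4 animals (vertical axis) by day relative to calving (horizontal axis) for each of the 7 genes, with the median of all genes as a dashed line. CLDN8 lies lowest at day -30 (0.0592), below the dashed line at both pregnancy days and above it from day +1 on, and CLDN4 peaks at 2.25 at day +180.

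Between neighbouring days no change of the 7 genes passed. Of 49 such differences (limma, 7 comparisons), 0 had an adjusted p under 0.05 and 4 had an unadjusted p under 0.05: CLDN4 from day +1 to day +15, TJP1 from day +120 to day +180, and OCLN and TJP1 from day +180 to day +240. An ordinary linear model with the animal as a factor also called 0. The share of all genes called was 1.79% from day -15 to day +1, 0.318% from day +1 to day +15, and 0.0149%, 0.88%, 0.89%, 0.338% and 0.801% in the 5 later steps. Against day -30, no gene of the 7 passed at day -15, +1, +15, +30, +120, +180 or +240 in limma. The shares of all genes called there were 0.00497%, 6.24%, 17.9%, 6.38%, 3.76%, 17.5% and 13.9%. At these 7 days 5 differences had an unadjusted p under 0.05, those of CLDN1 at day +30, +180 and +240, TJP1 at day +180 and OCLN at day +240. The 8 comparisons share the arrays of day -30.

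Other tight junction genes changed in both directions after calving. Of 48 further listed symbols, some of them older and newer names of the same gene, 37 were tested. Of these, 13 (35.1%) passed over the 9 days, against 42.3% of all genes. Between lactation and pregnancy 5 rose and 5 fell (27% of the 37, with 16.8% of all genes called as higher and 19.2% as lower; median difference 0.04, against -0.04 over all genes). The claudins on this list that changed were lower except CLDN5, the claudin of blood vessel endothelium.

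CLDN19, known from the kidney, fell by 1.19 ± 0.249 (SE) on the log2 scale from a mean of -2.23 in pregnancy to -3.42 in lactation (limma adjusted p = 0.000547). CLDN6, a claudin of embryonic epithelium, fell by 1.04 ± 0.252 (limma adjusted p = 0.00209), and it was among the 3 genes most like CLDN4 over the 36 arrays (r = 0.86). CLDN10 was lower by 1.62 ± 0.576 (limma adjusted p = 0.0283), but its probe was well above background on 21 of 36 arrays only, so the size is uncertain, and its test over the 9 days did not pass (limma adjusted p = 0.112). CLDN5 rose by 0.73 ± 0.171 (limma adjusted p = 0.00151). The 6 endothelial markers, CLDN5 among them, had a median array mean of 0.55 in pregnancy and 0.96 in lactation. Of the 6, 4 rose, where 16.8% of all genes were called as higher. The part of vessel content in the CLDN5 change was not tested.

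Among the plaque proteins under the membrane, CGN (cingulin) fell by 0.67 ± 0.135 (SE, limma adjusted p = 0.000375) and MAGI3, a scaffold, fell by 0.48 ± 0.147 (limma adjusted p = 0.0123), a call lost without animal 1 or 2. PRKCI, the atypical protein kinase C of cell polarity, rose by 0.44 ± 0.172 (limma adjusted p = 0.0429), and this call was lost without animal 1, 3 or 4 and with the animal as a fixed block (limma adjusted p = 0.0507). CSDA, the ZO-1-associated Y-box factor, rose by 0.82 ± 0.186 (limma adjusted p = 0.00113), and with brightness as a covariate its difference was 0.02 (adjusted p = 0.923). F11R (junctional adhesion molecule A) rose by 0.41 ± 0.11 (limma adjusted p = 0.00522) and VAPA, an occludin-binding membrane protein, by 0.48 ± 0.112 (limma adjusted p = 0.00151). INADL (PATJ), a polarity scaffold, passed over the 9 days (limma F test, adjusted p = 0.00592) but not between lactation and pregnancy (0.26 ± 0.245, adjusted p = 0.433). F11R, VAPA and CLDN10 were named after their values had been seen.

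**Figure D5:**
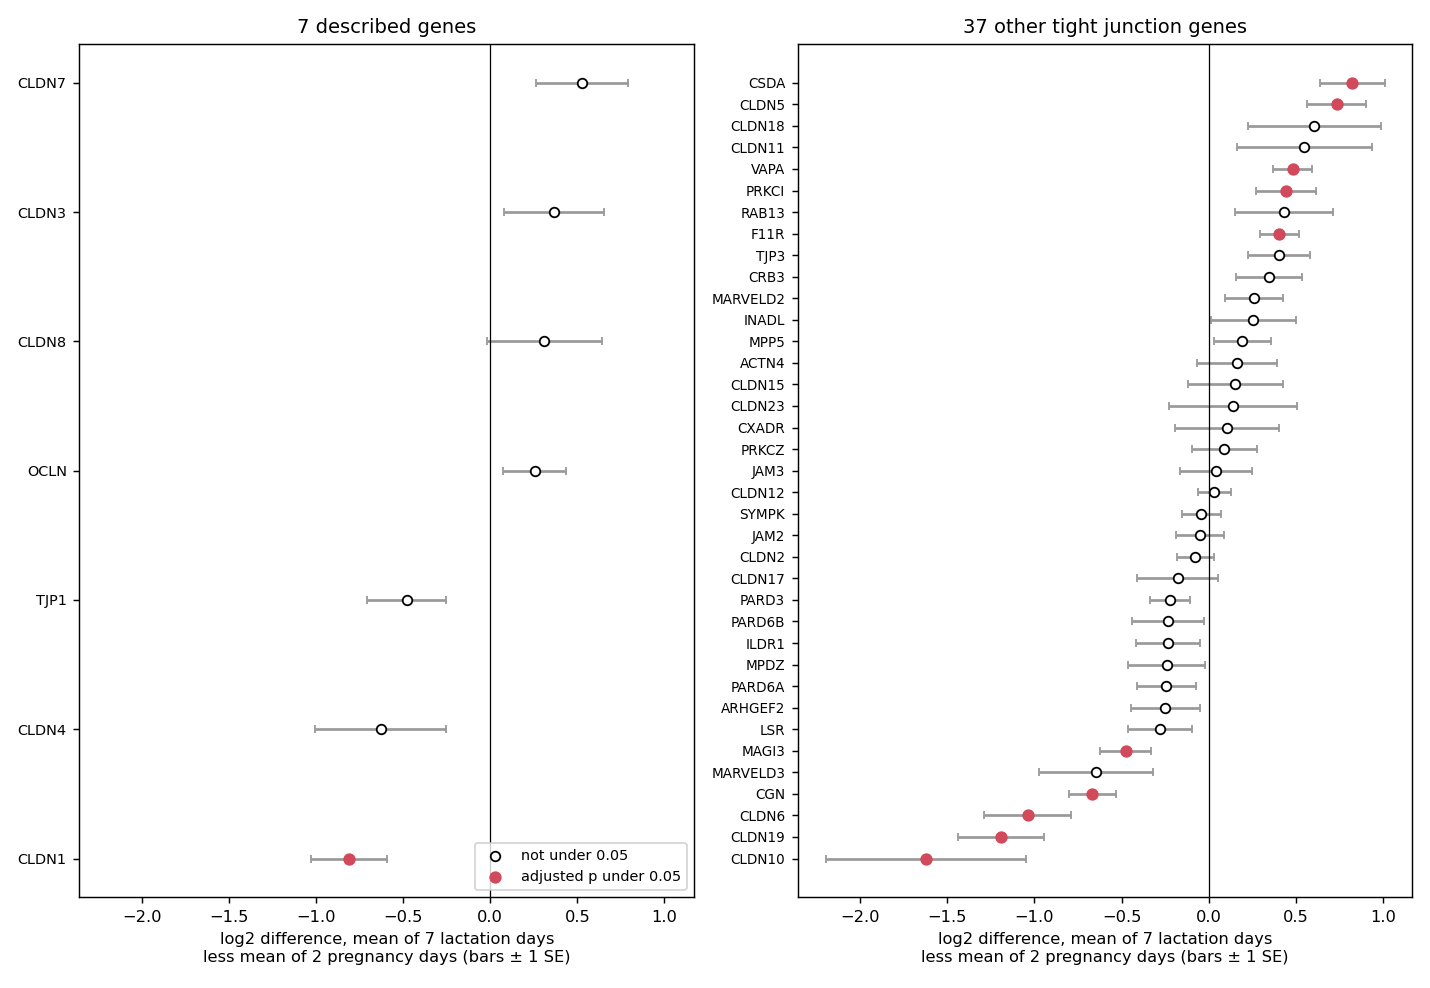
Log2 difference between the mean of the 7 lactation days and the mean of the 2 pregnancy days (horizontal axis, bars ± 1 SE) for the 7 genes (left) and 37 other tight junction genes (right), sorted by size; filled points have an adjusted p under 0.05. CLDN1 is the only filled point on the left (-0.81), and on the right 5 filled points lie above 0 and 5 below.

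Of 21 listed symbols of adherens junction and desmosome genes, the neighbouring cell contacts, 14 were tested. The symbols include older and newer names of the same genes, so fewer genes than symbols were listed. Of the 14 tested, 5 (35.7%) passed over the 9 days, against 42.3% of all genes. Between lactation and pregnancy 2 rose and 4 fell (42.9%, against 36% of all genes). CDH3 (P-cadherin), known from the myoepithelial layer of the mammary gland, fell by 1.23 ± 0.213 (SE, limma adjusted p = 7.3e-05). Of 5 basal and myoepithelial markers tested, 3 rose and 1 fell in the same comparison (16.8% of all genes were called as higher and 19.2% as lower). Their median difference was 0.60, with a median array mean of 2.98 in pregnancy and 3.44 in lactation. PVRL4, a nectin, fell by 0.66 ± 0.197 (limma adjusted p = 0.0103), a call lost without animal 3. CTNND1, a catenin that stabilises cadherins, fell by 0.47 ± 0.133 (limma adjusted p = 0.0072), a call lost without animal 2. DSP (desmoplakin), the desmosome plaque protein, fell by 0.42 ± 0.109 (limma adjusted p = 0.00327). The catenins CTNNA1 (0.26 ± 0.0999, limma adjusted p = 0.041) and CTNNB1 (0.20 ± 0.0802, limma adjusted p = 0.0461) rose. JUP (plakoglobin) passed over the 9 days (limma F test, adjusted p = 0.00862) but not between lactation and pregnancy (-0.05, adjusted p = 0.817). DSP, CTNNA1 and CTNNB1 were named after their values had been seen. With brightness as a covariate the lactation differences of CLDN19, CLDN6, PRKCI, CSDA, PVRL4 and CTNND1 did not pass, and with values relative to the luminal markers that of CLDN5 did not (limma adjusted p = 0.101).

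For each of the 7 genes the 3 genes most like it over the 36 arrays were found by Pearson's r. These arrays come from 4 animals and share brightness and tissue content, so r is a description. CLDN8 had the closest companions: GALM (r = 0.96), an enzyme of galactose metabolism, PCBD1 (r = 0.94) and ATP13A4 (r = 0.93). CLDN1 was most like KCTD1 (r = 0.90), P2RY6 (r = 0.88), a nucleotide receptor, and BEX4 (r = 0.86). KCTD1 fell in lactation by 1.15 (limma adjusted p = 0.000182), P2RY6 by 1.44 (limma adjusted p = 9.81e-05) and BEX4 by 1.45 (limma adjusted p = 0.00223). Of all genes 19.2% were called as lower in this comparison. These 3 were picked for their likeness to CLDN1 on the same arrays, so their fall is no independent result. Among the 3 genes most like CLDN4 were GGT6 (r = 0.86) and CLDN6 (r = 0.86). CLDN3 was most like PRSS8 (r = 0.88), a membrane-anchored protease of epithelia, EIF4EBP1 (r = 0.88) and GFER (r = 0.88). For CLDN7 (THTPA, SLC39A1 and TMEM53), OCLN (ZNF207, HERPUD1 and PSMD13) and TJP1 (RBM12B, PREX2 and UBE2E1) the highest r was between 0.73 and 0.77.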

How the data were processed

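RNA of 36 biopsies (4 animals at 9 days) was hybridised to single-colour arrays, 4 arrays a day. Each spot's deposited intensity, with the background subtracted, comes from Feature Extraction 10.7.3.1 per the file headers, as do quality marks for spots well above background. The authors deposited a table of log2 values, made with GeneSpring 12 per the series' design text, in which each array's 75th percentile is 0. This was checked against the scanner files: each column equals the log2 of 1 file's processed signal less a constant within 0.0041 of that percentile.

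Of 43653 probes, 34997 are in the table, and 34995 passed the filter (well above background on 3 or more of the 4 arrays of a day). The probe with the highest mean stood for a gene, leaving 20108 genes or unnamed transcripts, 11574 of which have a symbol of the yak gene table. The model was limma's (version 3.58.1, with statmod 1.5.0 and R 4.3.3), with day as fixed effect and animal as random block, as the design text names them (consensus correlation 0.0531). Tests are two-sided, with Benjamini-Hochberg adjustment over all genes within a comparison and a threshold of 0.05; they cover all 9 days (F test), 8 days against day -30, 7 neighbouring steps, and lactation against pregnancy. The animal number is the animal per the sample labels of the value table. Deviations from the day means correlated at 0.152 on average within an animal, and 32 of 36 arrays were most like an array of the same animal. The mean between animals, -0.0509, largely follows from the value within animals, because such deviations cancel within a day. Each animal has its own slide position, so this likeness cannot tell the animal from the position. The code was tested on simulated data. Alternatives covered the filter, the choice of probe, normalization, background correction, luminal scaling, the block, brightness and leaving out animals or arrays.

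The 7 genes and all lists were chosen with earlier results of these data known. Named were the 7 genes with all probes, the 8 tight junction and 4 adherens genes with the smallest F test p, and the 3 genes most like each of the 7; a gene of the tight junction list, left out of its counts, and a gene most like CLDN4 are not reported here. Probe positions are those of the files (UMD 3.1 per the file headers). Figures were drawn with matplotlib 3.10.9 in Python 3.11.15 (numpy 2.4.6, pandas 2.3.3). Fits with the days or animals of the scanner files' own labels were not made here.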

Additional observations from a re-analysis of the deposited data

Results flagged for a closer look

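In 5 of 63 groups of 4 arrays (7 genes at 9 days) 1 array stood apart by Dixon's criterion, its gap to the nearest array exceeding 0.829 of the whole range. Chance flags about 1 in 20 groups. CLDN4 was low in animal 4 at day +15 (-1.87) and at day +30 (-0.89), and high in animal 1 at day +60 (0.60). CLDN7 was low in animal 1 at day +15 (0.34), where CLDN3 on the same array was 3.02. CLDN8 was low in animal 1 at day +240 (1.60), where the mean of the 6 secretory markers was 4.08, against 6.92 to 7.96 in the other 3 animals. Animal 4 had the lowest luminal marker mean of the 4 animals at day +15 (2.51) and day +30 (2.58), and animal 1 the highest at day +60 (3.57). Animal 1 also had the highest luminal mean at day +15 (3.42) and day +240 (3.97), where its CLDN7 and CLDN8 values were flagged as low. The part of these markers in the values was not tested.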

How the results depend on the processing

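Of the 7 genes, 1 passed over the 9 days, 1 against day -30 (over 8 comparisons), 0 between neighbouring days and 1 between lactation and pregnancy. These counts and the gene called, CLDN1, were the same without the filter on dim probes, with a stricter one, with the mean of all probes, with quantile normalization, with normexp, with no replicate block, with the replicate block as a fixed effect and in the ordinary linear model with replicate block; the block changed no call of the 7 genes. Relative to the luminal markers the counts were 2, 4, 0 and 2 (CLDN1 and CLDN4). With brightness as a covariate CLDN1 was lost and CLDN8 was called as lower: 1 over the 9 days, 5 against day -30 and 1 in lactation. Without the 2 low-secretory arrays of animal 4 (an alternative chosen after seeing the data) the counts were 1, 2, 0 and 2, and without animal 1 at day +180 (likewise) they were 2, 1, 0 and 2. Leaving out 1 animal gave 0 to 1 over the 9 days, 0 to 1 against day -30, 0 between neighbouring days and 0 to 1 in lactation. Fits of the compared days alone gave 8 calls against day -30 and 2 between neighbouring days; for lactation this is the same fit.

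Reversed by the brightness covariate were CLDN8 in lactation (-1.16, adjusted p = 4.88e-05), at day +60 (-1.11), at day +120 (-1.24) and at day +240 (-1.29), and CSDA at day +15 (-0.20, from 0.95). The cause was not tested; brightness and day go together here. Of all genes, 8502 passed over the 9 days, 4633 with normexp, 4490 relative to the luminal markers, and 4186, 3284 and 2118 without animals 1, 2 and 3. Between lactation and pregnancy 7246 passed, 4681 with brightness, and 4767 and 4267 without animals 2 and 3. At day +60 5891 passed, 2359 relative to the luminal markers, 2784 with brightness, and 3744, 3743 and 2617 without animals 1, 2 and 3. Higher genes were 46.6% of those called in lactation, 69.4% with normexp, 15.5% relative to the luminal markers and 30.8% with brightness, with a median of all genes of -0.04, 0.15, -0.27 and -0.09. A fit with slide as a block could not be made, since each slide holds 1 day.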
